A study of Mus musculus with 9 samples.

Results

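The 10 genes described here encode claudins and their partners in the tight junction of the colon epithelium: *Cldn2*, *Cldn3*, *Cldn4*, *Cldn7*, *Cldn8*, *Cldn15*, *Cldn23*, *Ocln*, *Tjp1* and *Cgn*. They were taken by symbol from a table of read counts for 27719 genes in mouse colon, and all 10 passed the filter on low counts and were tested. Tight junctions seal neighbouring epithelial cells to each other near their apical side. Claudins span the membrane and set which ions pass between the cells, so that *Cldn2* and *Cldn15* form pores for cations and water, whereas *Cldn3*, *Cldn4*, *Cldn7* and *Cldn8* are mainly counted as sealing claudins. Occludin (*Ocln*) is a second membrane protein of the strands, and ZO-1 (*Tjp1*) and cingulin (*Cgn*) tie the strands to the actin cytoskeleton from inside the cell. Loss of this barrier is a known feature of colitis.

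RNA came from the colon of C57BL/6J mice in 3 groups of 3 mice, with 1 library per mouse. The control group drank distilled water. The DSS group drank 2.5% dextran sodium sulfate, a compound that injures the colon epithelium, for 7 days. The DSS + EA group drank the same and also received electroacupuncture (EA) at the ST36 point of both hind limbs, for 30 minutes at 2 Hz and 0.2 mA, once a day for 5 days from day 5 of the model on. Mice of the control and DSS groups were held for the same 30 minutes without EA, and no group received EA without DSS. The paper states that the mice were killed after the 5 days of treatment. By this schedule the 7 days of DSS had ended before the colon was taken. The age and sex of the mice are not given in the sources used here.

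Full-length cDNA was amplified by PCR and read on a nanopore sequencer, with between 2627695 and 4235576 counted reads per library. Levels are given as CPM, reads per 1000000 counted reads after TMM scaling of the library sizes (trimmed mean of M-values, which allows for differences in composition). A level of 3 reads, the floor used here, corresponds to between 0.708 and 1.14 CPM before that scaling. The RNA of cell type markers differed between libraries, which bears on every level below. The summed level of 6 genes that mark epithelium in general (*Epcam*, *Cdh1*, *Vil1*, *Krt8*, *Krt18* and *Krt19*) was 3798, 3699 and 4130 CPM in control mice 1 to 3, 3131, 1599 and 665 CPM in DSS mice 1 to 3, and 3541, 2913 and 3209 CPM in DSS + EA mice 1 to 3. DSS mouse 3 thus carried the least epithelial RNA, and DSS mouse 1 stood closest to the other groups. The summed level of 10 neutrophil markers ran the other way, from 24.3 to 159 CPM in the control group, at 4515, 24904 and 27294 CPM in DSS mice 1 to 3 and from 1192 to 1578 CPM in the DSS + EA group. DSS + EA mice 2 and 3 also held 40146 and 17984 CPM of 12 pancreatic acinar markers, against 636 CPM in DSS + EA mouse 1 and at most 955 CPM in the other groups, and control mouse 3 held 54.8 CPM of 5 distal Hox genes against 212 and 260 CPM in the other 2 control mice. In a bulk sample, fewer epithelial cells and less RNA of a gene per cell cannot be told apart. Each comparison was therefore also made relative to the summed counts of the 6 epithelial genes, none of which is among the 10.

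**Figure D1:**
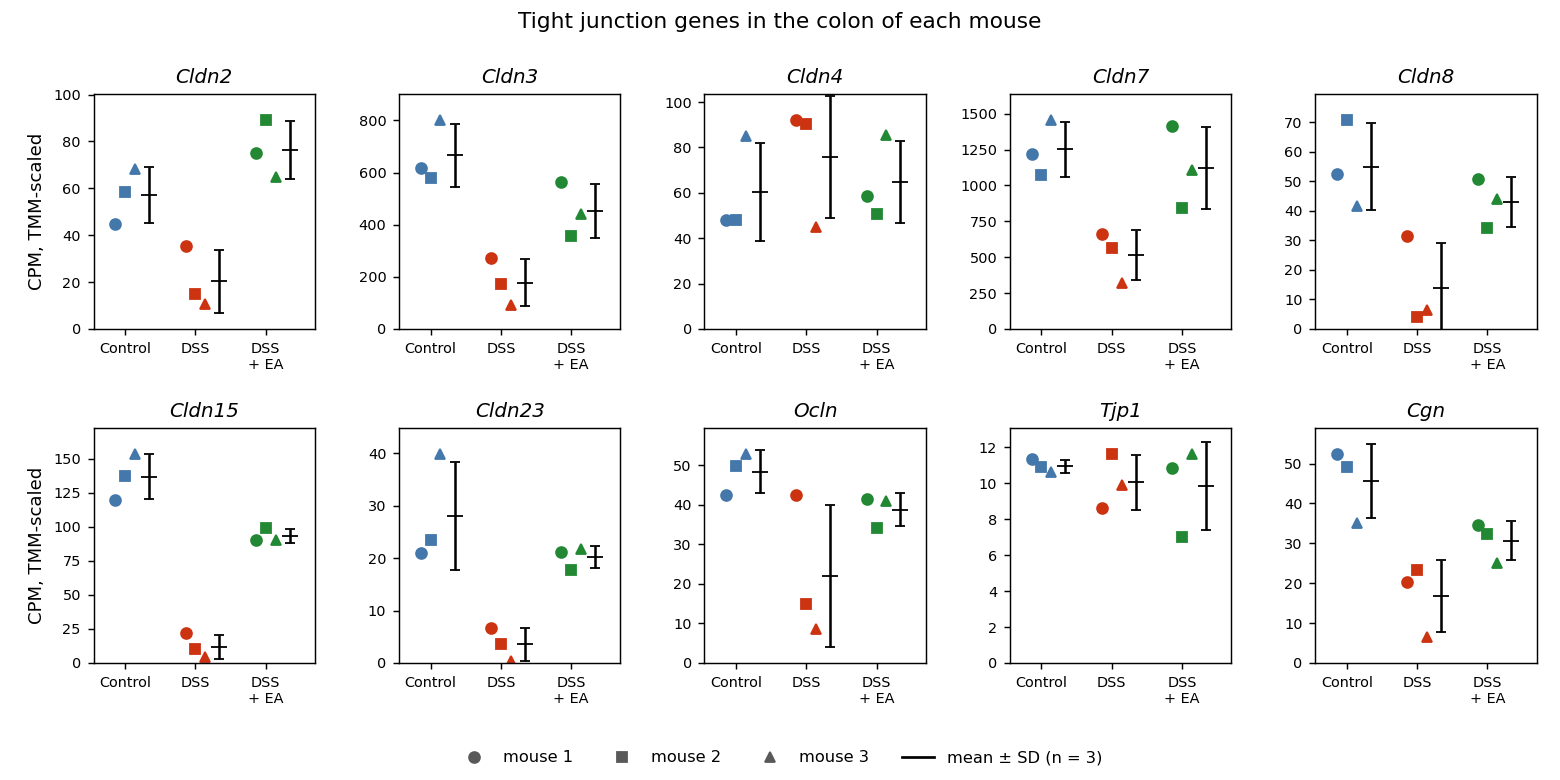
Level of each of the 10 tight junction genes in every mouse. The y axis gives TMM-scaled CPM on a linear scale from 0, with a scale of its own for each gene, colours mark the 3 groups, symbols mark the mouse number within a group (mice with the same number are different animals), and black bars give the mean ± SD of 3 mice (the bar of *Cldn8* in the DSS group is cut off at 0). The 3 DSS mice lie below all control mice for *Cldn2*, *Cldn3*, *Cldn7*, *Cldn8*, *Cldn15*, *Cldn23* and *Cgn*, but not for *Cldn4*, *Ocln* and *Tjp1*.

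Compared with the control group, 7 of the 10 genes were lower in the DSS group and none was higher. *Cldn15* fell most, by 11.4-fold, followed by *Cldn23*, *Cldn8*, *Cldn3*, *Cldn2*, *Cgn* and *Cldn7*. *Ocln*, *Cldn4* and *Tjp1* did not pass the test. With DSS and EA together, *Cldn15*, *Cldn23*, *Cldn2*, *Cldn3* and *Cldn7* were higher than with DSS alone and none of the 10 was lower. A pass is an adjusted p under 0.05 in edgeR's quasi-likelihood test over all 12566 genes tested. In the comparison of DSS with control, 40.9% of all genes tested passed and 19.5% passed as lower, so that a call on its own is common in these data; in that of DSS + EA with DSS, 35.5% passed and 17.2% passed as higher. All 3 DSS mice were below all 3 control mice in 7 of the 10 genes, and this held for 25.9% of all genes tested. All 3 DSS + EA mice were above all 3 DSS mice in the same 7 genes, and this held for 24.2% of all genes. The median log2 fold change of the 10 genes was −1.47 in DSS against control, where that of all genes tested was 0.02, and 1.24 in DSS + EA against DSS, where that of all genes was −0.02. The DSS mice serve in both comparisons, so the fall and the higher level with EA are not independent of each other.

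**Figure D2:**
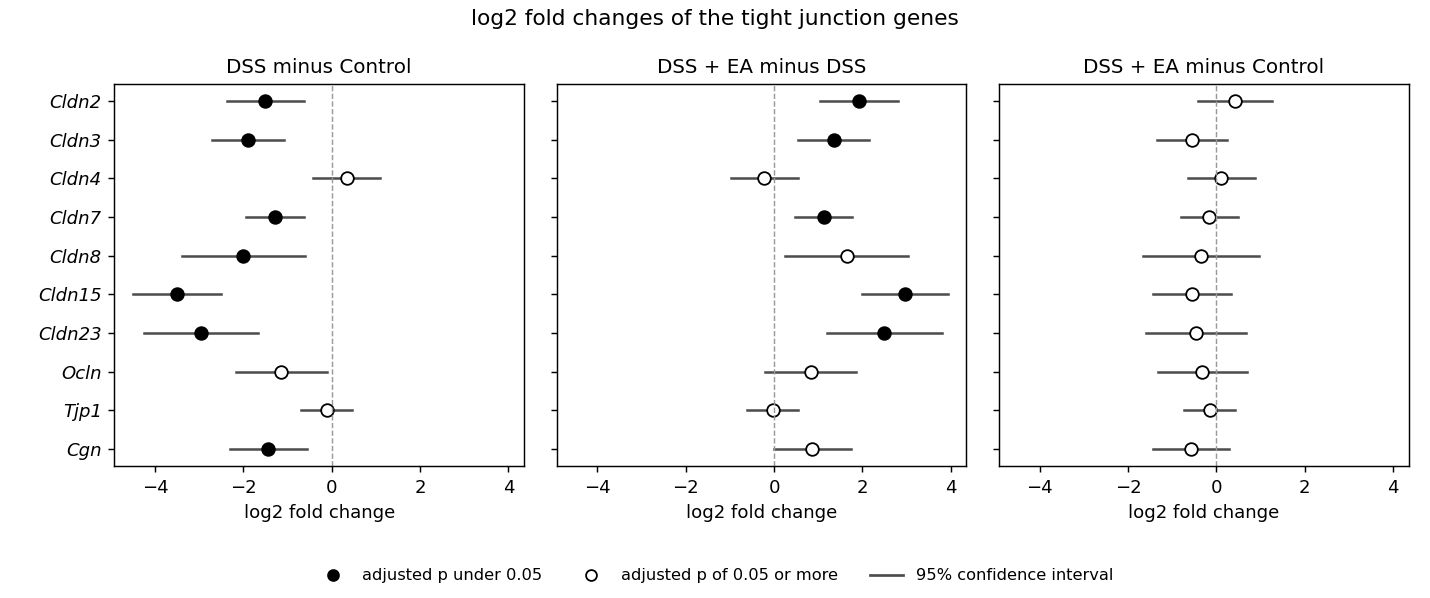
log2 fold changes of the 10 genes from edgeR's quasi-likelihood fit of all 9 libraries, with 95% confidence intervals, for DSS minus control, DSS + EA minus DSS and DSS + EA minus control. Filled points have an adjusted p under 0.05: 7 genes lower in the first comparison, 5 higher in the second and none in the third.

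Among the pore-forming claudins, *Cldn15* (chromosome 5, 136966616 to 136975858, plus strand, GRCm38) had 120, 137 and 154 CPM in control mice 1 to 3. It had 21.7, 10.1 and 4.33 CPM in DSS mice 1 to 3, and 90.6, 99.3 and 90.0 CPM in DSS + EA mice 1 to 3. No group overlapped with another, and the DSS + EA mice lay between the other 2 groups. On the log2 scale the change was −3.51 ± 0.44 (SE) in DSS against control, with an adjusted p of 0.000345 by edgeR's quasi-likelihood test, and 2.96 ± 0.44 in DSS + EA against DSS, with an adjusted p of 0.00130. Both calls were kept whichever library was left out. Without DSS mouse 1, the DSS mouse with the most epithelial RNA, the 2 changes were −4.22 and 3.67.

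*Cldn2* (chromosome X, 139800828 to 139811386, plus strand), the other pore-forming claudin of the set and one often found raised in inflamed gut, had 44.9, 58.4 and 68.4 CPM in control mice. It had 35.4, 14.9 and 10.5 CPM in DSS mice and 75.2, 89.3 and 64.8 CPM in DSS + EA mice. All DSS mice were below all control mice, and the DSS + EA mice were above the DSS mice and overlapped with the control mice at the upper end. *Cldn2* changed by −1.50 ± 0.39 on the log2 scale in DSS against control (edgeR's quasi-likelihood test, adjusted p = 0.0133) and 1.92 ± 0.40 in DSS + EA against DSS (adjusted p = 0.00578). The first call was lost without DSS mouse 2 (log2 fold change −1.30, adjusted p = 0.0510), and without DSS mouse 1 the 2 changes were −2.18 and 2.60. *Cldn2* was thus lower, not higher, in the colon RNA of the DSS group.

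*Cldn3*, *Cldn7*, *Cldn8* and *Cldn23* fell together with *Cldn15*, although by different amounts. *Cldn3*, a sealing claudin (chromosome 5, 134986214 to 134987472, plus strand), had 616, 580 and 803 CPM in control mice, 273, 171 and 89.8 CPM in DSS mice and 563, 357 and 439 CPM in DSS + EA mice. Its 3 groups did not overlap, and the log2 fold changes were −1.91 ± 0.37 for DSS against control (edgeR's quasi-likelihood test, adjusted p = 0.00289) and 1.35 ± 0.36 for DSS + EA against DSS (adjusted p = 0.0168). The second call was lost without DSS + EA mouse 1 (1.15, adjusted p = 0.0601) or without DSS mouse 2 (1.31, adjusted p = 0.0528).

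*Cldn7*, which also takes part in contacts along the lateral side of colon cells (chromosome 11, 69964779 to 69967885, plus strand), had 1222, 1075 and 1458 CPM in control mice, 660, 563 and 323 CPM in DSS mice and 1413, 846 and 1107 CPM in DSS + EA mice. The DSS mice lay below both other groups, which overlapped with each other. *Cldn7* fell by 1.28 ± 0.29 on the log2 scale with DSS (edgeR's quasi-likelihood test, adjusted p = 0.00681), the smallest change of the 7 that passed, and was 1.12 ± 0.29 higher with EA than with DSS alone (adjusted p = 0.0150). Without DSS + EA mouse 1 the second difference was 0.91 (adjusted p = 0.0593).

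*Cldn8*, a sealing claudin that is strong in the distal colon (chromosome 16, 88560828 to 88563183, minus strand), had 52.4, 70.9 and 41.8 CPM in control mice, 31.6, 3.88 and 6.50 CPM in DSS mice and 50.7, 34.1 and 44.1 CPM in DSS + EA mice. DSS mice 2 and 3 were far below DSS mouse 1, which itself lay below every control and DSS + EA mouse. *Cldn8* changed by −2.00 ± 0.62 on the log2 scale in DSS against control (edgeR's quasi-likelihood test, adjusted p = 0.0277) and 1.64 ± 0.62 in DSS + EA against DSS (adjusted p = 0.0632), so that the second did not pass, whereas DESeq2 called it (1.63, adjusted p = 0.0370). The first call was the least stable of the 7: the adjusted p was 0.0588 without control mouse 1, 0.0810 without control mouse 2, 0.0609 without DSS mouse 2 and 0.0771 without DSS mouse 3, while without DSS mouse 1 the 2 changes were −3.45 and 3.10 with adjusted p of 9.12e-05 and 0.000255.

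*Cldn23* (chromosome 8, 35824712 to 35826559, minus strand), a claudin of the differentiated colon surface, had 20.9, 23.4 and 39.9 CPM in control mice, 6.70, 3.66 and 0.310 CPM in DSS mice and 21.1, 17.8 and 21.7 CPM in DSS + EA mice. The level in DSS mouse 3 rests on 1 read, which is under the floor, and DSS mice 1 and 2 had 21 and 17 reads. All DSS mice were below both other groups. On the log2 scale the change was −2.96 ± 0.58 in DSS against control (edgeR's quasi-likelihood test, adjusted p = 0.00325) and 2.50 ± 0.58 in DSS + EA against DSS (adjusted p = 0.00970). Without DSS mouse 1 these were −3.68 and 3.22. By the thresholds of the study for a differentially expressed gene, a log2 fold change beyond 2.5 and an unadjusted P under 0.01, *Cldn15* and *Cldn23* were the 2 that passed as lower with DSS, where 3.57% of all genes tested did, and *Cldn15* was the 1 that passed as higher with EA, where 2.91% did. *Cldn23* lay at the threshold there, and with DESeq2, the tool of the study, its log2 fold change of 2.53 (adjusted p = 0.000194) passed, which made 2 genes.

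*Cldn4*, the remaining claudin and also a sealing one (chromosome 5, 134945119 to 134946934, minus strand), did not follow the others. It had 47.9, 47.8 and 85.2 CPM in control mice, 92.2, 90.3 and 44.9 CPM in DSS mice and 58.6, 50.8 and 85.3 CPM in DSS + EA mice. DSS mice 1 and 2 held the highest levels of all 9 libraries and DSS mouse 3 the lowest, so the groups overlapped. The log2 fold change was 0.33 with a 95% confidence interval from −0.43 to 1.10 in DSS against control (edgeR's quasi-likelihood test, adjusted p = 0.460), and −0.23 from −0.98 to 0.53 in DSS + EA against DSS (adjusted p = 0.631).

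Of the 3 genes for partners of the claudins, 1 passed in DSS against control. *Cgn*, which encodes the plaque protein cingulin (chromosome 3, 94760069 to 94786492, minus strand), had 52.4, 49.2 and 35.0 CPM in control mice, 20.4, 23.3 and 6.50 CPM in DSS mice and 34.7, 32.2 and 25.2 CPM in DSS + EA mice. The 3 groups did not overlap and the DSS + EA mice lay between the others. It fell by 1.43 ± 0.39 on the log2 scale with DSS (edgeR's quasi-likelihood test, adjusted p = 0.0159; 0.0515 without control mouse 1), and the difference of 0.86 ± 0.39 between DSS + EA and DSS did not pass (adjusted p = 0.111).

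*Ocln* (chromosome 13, 100496507 to 100552718, minus strand) had 42.4, 49.8 and 52.9 CPM in control mice, 42.4, 14.9 and 8.67 CPM in DSS mice and 41.4, 34.1 and 40.9 CPM in DSS + EA mice. DSS mouse 1 was at the control level, whereas DSS mice 2 and 3 were below every other mouse. The log2 fold change of −1.14 ± 0.46 did not pass (edgeR's quasi-likelihood test, adjusted p = 0.0711), nor did that of 0.83 ± 0.46 in DSS + EA against DSS (adjusted p = 0.181). Without DSS mouse 1 both passed, at −2.04 (adjusted p = 0.000304) and 1.73 (adjusted p = 0.000958).

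*Tjp1* (chromosome 7, 65296165 to 65527781, minus strand), the scaffold ZO-1, stayed within a narrow band, at 11.3, 10.9 and 10.6 CPM in control mice, 8.62, 11.6 and 9.91 CPM in DSS mice and 10.9, 7.04 and 11.6 CPM in DSS + EA mice. All groups overlapped. The log2 fold change was −0.12 with a 95% confidence interval from −0.69 to 0.45 in DSS against control (edgeR's quasi-likelihood test, adjusted p = 0.737) and −0.03 from −0.60 to 0.55 in DSS + EA against DSS (adjusted p = 0.941). ZO-1 is also made by endothelial cells, and the summed level of 6 endothelial markers was 35.0 to 42.1 CPM in the control group, 101 to 129 CPM in the DSS group and 39.0 to 41.5 CPM in the DSS + EA group, none of the markers being at 0 in any group. Of these 6 markers, 5 were higher in DSS than in control and 5 were lower in DSS + EA than in DSS, and their part in the level of *Tjp1* was not tested.

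Between the DSS + EA and the control group, none of the 10 genes passed by edgeR's quasi-likelihood test, none had an unadjusted p under 0.05, and DESeq2 also called 0; of all genes tested, 3.64% passed. The log2 fold changes lay between −0.57 for *Cgn* and 0.42 for *Cldn2*. For *Cldn3*, *Cldn15*, *Ocln* and *Cgn* all 3 DSS + EA mice were nevertheless below all 3 control mice, which held for 14.2% of all genes tested. A fit of these 2 groups alone called *Cldn15* lower (adjusted p = 0.0354). The confidence interval for *Cldn15*, from −1.43 to 0.33, includes 0.

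The order of the DSS mice ran through most of the set. In 7 of the 10 genes DSS mouse 1 was highest and DSS mouse 3 lowest, the same order as in the summed level of the 6 epithelial genes, and the exceptions were *Cldn8*, *Tjp1* and *Cgn*. The share of all genes tested with this order was not determined. Of the 6 epithelial genes, *Epcam* departed from this order, with 150, 185 and 38.1 CPM in DSS mice 1 to 3. The 7 markers of surface colonocytes, the mature absorptive cells, had 1489, 579 and 172 CPM in the same 3 mice against 2950 to 3038 CPM in control mice and 2744 to 3358 CPM in DSS + EA mice. Of these 7 markers, 6 were lower in DSS than in control and 6 were higher in DSS + EA than in DSS. Smooth muscle markers were lower in DSS in 5 of 6, fibroblast markers higher in 6 of 6 and neutrophil markers higher in 9 of the 9 tested. The part of these shifts in the levels of the tight junction genes was not tested gene by gene. The fit relative to the epithelial genes compares each with the summed reads of those 6 genes, which did not move alike. In DSS against control their log2 fold changes ran from −0.63 for *Cdh1* to −1.88 for *Vil1*, and 2 of the 6 passed as lower. *Krt8* and *Krt19* made up most of the sum, with means of 1448 and 1323 of 3875 CPM in control mice. Relative to the sum, *Vil1* itself was at −0.71 in DSS against control and 1.10 in DSS + EA against DSS, neither past the threshold.

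Relative to the epithelial genes, *Cldn15* and *Cldn23* were still lower in the DSS group, *Cldn4* and *Tjp1* were higher, and the other 6 did not pass. On this scale the median of all genes tested shifted by 1.62 on the log2 scale with DSS, 54.9% of genes passed as higher and only 2.88% as lower, so that passing as higher was common and passing as lower was rare. The fall was not particular to *Cldn15* and *Cldn23*: of the 7 surface colonocyte markers, 2 were also lower on this scale in DSS than in control, and 4 were higher in DSS + EA than in DSS. *Cldn15* had 31.6, 37.1 and 37.2 reads per 1000 reads of the epithelial genes in control mice 1 to 3, 6.93, 6.34 and 6.51 in DSS mice and 25.6, 34.1 and 28.0 in DSS + EA mice. The 3 DSS mice were almost equal on this scale, although their epithelial RNA ranged from 665 to 3131 CPM. The log2 fold change was −2.42 ± 0.57 in DSS against control (edgeR's quasi-likelihood test, adjusted p = 0.00141) and 2.14 ± 0.56 in DSS + EA against DSS (adjusted p = 0.00506), and both calls were kept without any 1 library and without any 1 of the 6 epithelial genes.

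*Cldn23* had 5.51, 6.33 and 9.67 reads per 1000 epithelial reads in control mice, 2.14, 2.29 and 0.465 in DSS mice and 5.97, 6.10 and 6.77 in DSS + EA mice. It was −1.99 ± 0.64 in DSS against control (edgeR's quasi-likelihood test, adjusted p = 0.0116; 0.0680 without control mouse 3) and 1.80 ± 0.64 in DSS + EA against DSS (adjusted p = 0.0259). The second call was lost without DSS + EA mouse 1, 2 or 3, with adjusted p of 0.0706, 0.0638 and 0.0867. *Cldn15* and *Cldn23* were the 2 of the 10 genes that passed as higher with EA on this scale, where 2.75% of all genes did.

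*Cldn4* had 12.6, 12.9 and 20.6 reads per 1000 epithelial reads in control mice, 29.5, 56.5 and 67.5 in DSS mice and 16.5, 17.4 and 26.6 in DSS + EA mice. The DSS mice were above both other groups. Their order is opposite to that of their epithelial RNA, by which the reads are divided on this scale. In CPM, *Cldn4* in the DSS mice had the same order as their epithelial RNA. The log2 fold change of 1.73 ± 0.57 passed (edgeR's quasi-likelihood test, adjusted p = 0.0133), but not without control mouse 1 (adjusted p = 0.0805) or control mouse 2 (adjusted p = 0.0755). That of −1.34 ± 0.56 in DSS + EA against DSS missed the threshold (adjusted p = 0.0539) and passed without DSS mouse 1 (−1.62, adjusted p = 0.00287) or DSS mouse 3 (−1.09, adjusted p = 0.0487).

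*Tjp1* had 2.58 to 2.99 reads per 1000 epithelial reads in control mice, 2.75, 7.28 and 14.9 in DSS mice and 2.42 to 3.63 in DSS + EA mice, so that DSS mouse 1 was within the control range. Its log2 fold change of 1.49 ± 0.64 with DSS only just passed (edgeR's quasi-likelihood test, adjusted p = 0.0493), and the call was lost in 8 of the 9 fits without 1 library, with adjusted p up to 0.163 without DSS mouse 3. *Ocln* had 11.2 to 13.5 reads per 1000 epithelial reads in control mice, 9.30 to 13.6 in DSS mice and 11.7 to 12.7 in DSS + EA mice, so its groups overlapped and its log2 fold change with DSS was −0.06 with a 95% confidence interval from −1.17 to 1.05. *Cldn7* was likewise at 0.12, from −0.96 to 1.20, with 291 to 353 reads per 1000 in control mice and 211 to 486 in DSS mice. *Cldn2*, *Cldn3*, *Cldn8* and *Cgn* lay between −0.97 and −0.21, none past the threshold. All DSS mice were below all control mice for *Cldn3* (87.2 to 135 against 157 to 194 reads per 1000) and *Cldn8* (2.43 to 10.09 against 10.13 to 19.2). Each passed in 1 of the 9 fits without 1 library (edgeR's quasi-likelihood test, adjusted p of 0.0226 and 0.0274). All DSS + EA mice were above all DSS mice for *Cldn8* (11.7 to 14.3) and *Cldn2* (20.2 to 30.6 against 9.30 to 15.8). For gaps between the DSS mice and another group on this scale, the share of all genes is not given here. Such gaps, also those of *Cldn4*, *Cldn15* and *Cldn23*, therefore stand without a background. *Cldn2* was the 1 gene of the 10 whose DSS + EA mice were all above all control mice on this scale, at 20.2 to 30.6 against 11.8 to 16.6 reads per 1000, which held for 30.7% of all genes tested; its log2 fold change of 0.71 ± 0.55 did not pass (edgeR's quasi-likelihood test, adjusted p = 0.999).

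**Figure D3:**
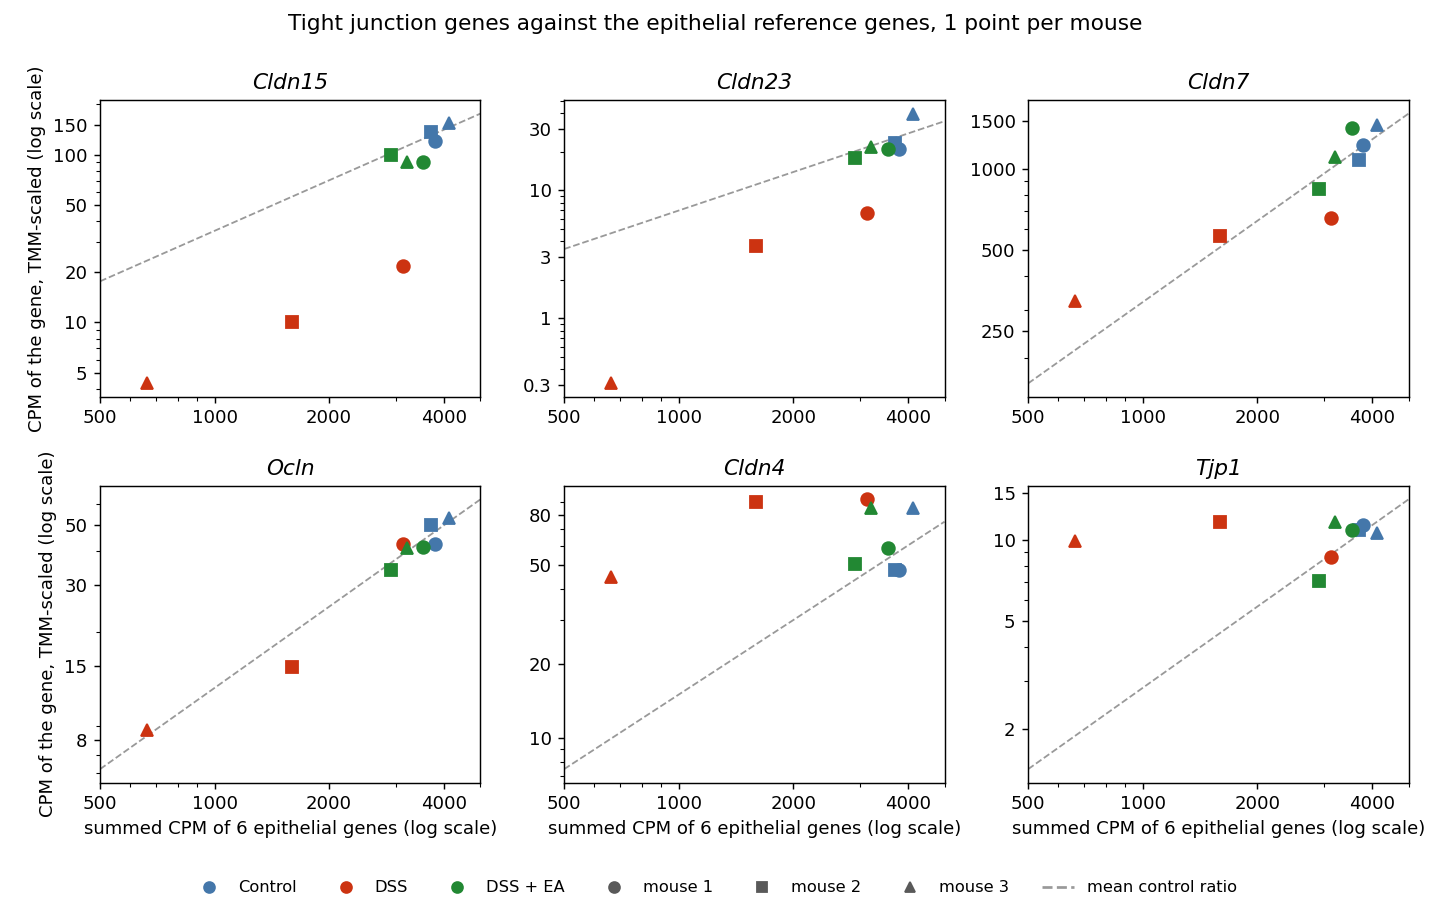
CPM of 6 of the genes against the summed CPM of the 6 epithelial reference genes, 1 point per mouse, both axes on a log scale; the dashed line marks the mean ratio of the control mice. The DSS mice lie below the line for *Cldn15* and *Cldn23*, on both sides of it for *Ocln* and *Cldn7*, and above it for *Cldn4*, while *Tjp1* is above it in DSS mice 2 and 3 only.

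The balance between pore-forming and other claudins was measured within each library, which removes depth and scaling. Most reads of the other claudins were of *Cldn7* and *Cldn3*, so the ratio says little of *Cldn4*, *Cldn8* and *Cldn23*. On average *Cldn7* and *Cldn3* made up 55.5% and 29.5% of the claudin reads of the set in control mice. Their shares were 64.0% and 21.0% in DSS mice and 59.5% and 24.1% in DSS + EA mice. The log2 ratio of the summed reads of *Cldn2* and *Cldn15* to those of *Cldn3*, *Cldn4*, *Cldn7*, *Cldn8* and *Cldn23* was −3.57, −3.20 and −3.45 in control mice, −4.22, −5.05 and −4.97 in DSS mice and −3.67, −2.79 and −3.45 in DSS + EA mice. All DSS mice were below all mice of both other groups. The difference was −1.34 for DSS against control and 1.44 for DSS + EA against DSS, each with an exact two-sided permutation p of 0.1, the smallest that 3 mice against 3 can give, and 0.10 for DSS + EA against control (exact permutation p = 0.9). The shift with DSS came with *Cldn15*: with *Cldn2* alone in the numerator the difference of DSS from control was −0.21 (exact permutation p = 0.6), and that of DSS + EA from control was 0.72 (exact permutation p = 0.1).

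*Cldn3* and *Cldn4* are neighbours on chromosome 5, read away from each other with 39279 bases between them, and both have a single exon in the GENCODE annotation. Each library held 12.9, 12.1 and 9.42 *Cldn3* reads per *Cldn4* read in control mice, 2.96, 1.89 and 2.00 in DSS mice and 9.61, 7.04 and 5.15 in DSS + EA mice. The DSS mice did not overlap with either group. The ratio was 5.08-fold lower in DSS than in control and 3.15-fold higher in DSS + EA than in DSS, each with an exact permutation p of 0.1. This pair was chosen after its values were seen.

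**Figure D4:**
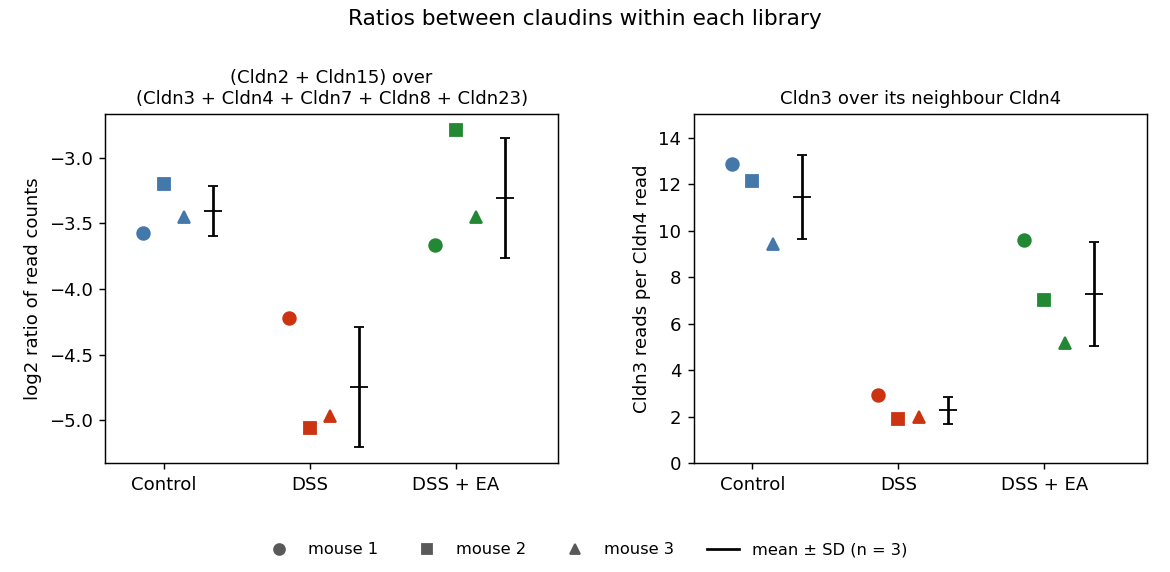
Ratios of claudin reads within each library, 1 point per mouse, with mean ± SD of 3 mice in black. Left, log2 ratio of pore-forming (*Cldn2* and *Cldn15*) to the other 5 claudins; right, *Cldn3* reads per *Cldn4* read on a linear scale from 0. In both, the 3 DSS mice lie below all mice of the control and DSS + EA groups.

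The sequence before the start of 2 of the genes is shown because their results in DSS against control differed. *Cldn2* passed as lower in CPM and did not pass relative to the epithelial genes. *Cldn4* did not pass in CPM and passed as higher relative to them. *Cldn3*, *Cldn7*, *Cldn8* and *Cgn* had the same pair of results as *Cldn2*, so that pair does not single out *Cldn2*. RefSeq windows of 250 bases before the start were at hand for 8 of the 10 genes (not for *Cldn8* and *Cldn23*; 10 windows in all). Both strands were searched for TGANTCA (the AP-1 motif), TTTATG (the core of the CDX motif), CAGGTG (an E-box bound by Snail factors) and CAAAGTCCA (the HNF4A motif). Capitals mark matches to TGANTCA or TTTATG in the windows of *Cldn2* (GRCm38.p6, chrX:139800558-139800807, plus strand) and *Cldn4* (GRCm38.p6, chr5:134946935-134947184, minus strand), both 5′ to 3′.
Cldn2: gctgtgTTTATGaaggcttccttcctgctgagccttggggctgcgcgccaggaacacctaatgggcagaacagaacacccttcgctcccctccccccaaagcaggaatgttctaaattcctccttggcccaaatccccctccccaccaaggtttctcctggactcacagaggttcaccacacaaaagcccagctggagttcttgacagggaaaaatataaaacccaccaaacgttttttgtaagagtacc
Cldn4: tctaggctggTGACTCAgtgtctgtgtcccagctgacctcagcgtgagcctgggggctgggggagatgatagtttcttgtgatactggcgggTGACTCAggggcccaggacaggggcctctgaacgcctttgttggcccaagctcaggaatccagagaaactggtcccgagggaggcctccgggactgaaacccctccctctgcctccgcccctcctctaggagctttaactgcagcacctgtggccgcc
The *Cldn2* window holds 1 match to TTTATG, 244 bases before the start, and the *Cldn4* window 2 matches to TGANTCA, 240 and 158 bases before it, and 1 to CAGGTG, 14 bases before it. Among the 8 genes, TGANTCA was also found in the window of *Cldn15* and in no other, TTTATG was found in *Cldn2* alone, CAGGTG in *Cldn4*, *Cldn7* and *Ocln*, and CAAAGTCCA in none. The *Cldn7* and *Ocln* matches lie in a second window of each gene, of which 221 and 155 of the 250 bases are within annotated exons, and the window of each gene outside exons holds none; 25 bases of the *Cldn15* window are exonic. Of all 32851 windows of this length, 6.75% hold TGANTCA, 10.8% TTTATG, 17.2% CAGGTG and 0.384% CAAAGTCCA. These are matches of letters. Binding was not measured, and a link of the matches to the levels of the genes was not tested.

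Genes whose levels followed those of the set most closely were found by Pearson's r over the 9 libraries among 7166 genes with a mean of at least 10 CPM. The libraries form 3 groups that differ in the RNA of cell type markers, so r can largely reflect differences between groups. It is given as a description. The closest were *Rnf5* for *Cldn15* (r = 0.997), *Uap1* for *Cldn23* (0.994), *Grb7* for *Cldn3* (0.993), *Stard10* for *Cgn* (0.993), *Mboat1* for *Ocln* (0.990), *Galk2* for *Cldn8* (0.989), *Naip1* for *Cldn2* (0.987) and *Lad1* for *Cldn7* (0.982). The second closest were *Tspan13*, *Tpsg1*, *Tep1*, *Inppl1*, *Dhx32*, *Uqcc1*, *Ifi27l2b* and *Tm7sf2*, in the same order. For *Tjp1* (*Rgcc*, 0.933, and *Mpzl1*, 0.924) and *Cldn4* (*Cdca3*, 0.912, and *Luzp1*, 0.880) the best r was lower. Within the set, *Cldn3* and *Cldn7* were most alike (r = 0.981). With any of the other 9, *Cldn4* had r of at most 0.181 and *Tjp1* of at most 0.248.

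The other claudins listed for comparison were mostly near or under the floor. Of 17 in the table, 5 were tested, among them *Cldnd1*, which has a claudin domain but is not a claudin. *Cldn10*, a claudin that occurs as cation- and anion-selective forms, was the 1 that passed in DSS against control. Its level was 2.51 ± 0.86 CPM (SD, n = 3) in control mice, 5.56 ± 0.56 in DSS mice and 5.38 ± 2.25 in DSS + EA mice, and it was 1.17 ± 0.41 (SE) higher on the log2 scale with DSS (edgeR's quasi-likelihood test, adjusted p = 0.0436). *Cldn14* was the 1 that passed in DSS + EA against DSS, at 1.44 (adjusted p = 0.0489). Of all genes tested, 21.5% passed as higher in DSS against control and 17.2% in DSS + EA against DSS. A count of 1 in 5 is near the background in both. *Cldn5*, the claudin of endothelium, was at −0.20 in DSS against control and did not pass (adjusted p = 0.668). *Cldn1* was too low to be tested, with 0 to 4 reads in control mice, 15, 9 and 42 reads in DSS mice and 5 to 6 reads in DSS + EA mice.

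Of 32 further genes of the tight junction in the table, 29 were tested; 9 were lower and 5 higher in DSS than in control, and 7 were higher and 4 lower in DSS + EA than in DSS. Of all genes tested, 19.5% were lower and 21.5% higher in the first comparison and 17.2% were higher and 18.3% lower in the second. *Tjp3*, which encodes the epithelial scaffold ZO-3, fell most, from 36.4 ± 6.5 CPM (SD, n = 3) in control mice to 9.98 ± 2.75 in DSS mice, with 26.7 ± 9.1 in DSS + EA mice. Its log2 fold change was −1.86 ± 0.32 (SE) in DSS against control and 1.41 ± 0.32 in DSS + EA against DSS (edgeR's quasi-likelihood test, adjusted p of 0.00157 and 0.00820). *Crb3*, an apical polarity protein, *Marveld3*, a relative of occludin, and *Ildr1*, a protein of junctions where 3 cells meet, also fell, by 1.85, 1.68 and 1.30 on the log2 scale. The 5 that rose with DSS were *Amotl1*, *Mpdz*, *Jam3*, *Jam2* and *Esam*, of which *Jam2*, *Jam3* and *Esam* encode adhesion proteins that endothelial cells also carry. *Amotl1* rose most, by 1.33 ± 0.46 (adjusted p = 0.0414), although its groups overlapped. Relative to the epithelial genes, 11 of the 29 were higher in DSS than in control and none was lower, where 54.9% and 2.88% of all genes tested passed, so a count of 0 lower is near the background.

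**Figure D5:**
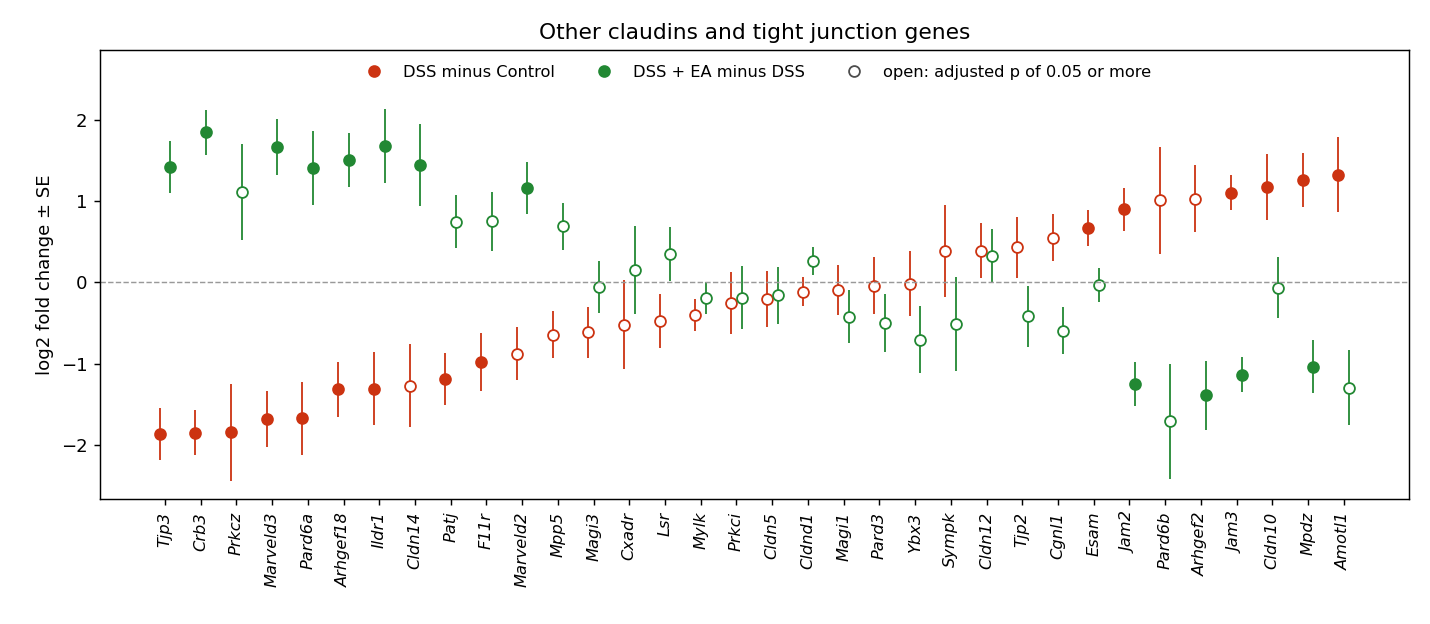
log2 fold change ± SE of the 34 other claudins and tight junction genes that were tested, for DSS minus control (red) and DSS + EA minus DSS (green), ordered by the former; filled points have an adjusted p under 0.05. The same DSS mice enter both comparisons, so the 2 changes are not independent of each other.

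Of 15 genes tested for the adherens junction and desmosome, the adhesion complexes below the tight junction, 2 were lower and none was higher in DSS than in control, which is no more than the 19.5% and 21.5% of all genes. *Jup*, which encodes plakoglobin, fell by 1.17 ± 0.34 on the log2 scale (edgeR's quasi-likelihood test, adjusted p = 0.0212), and *Ctnnd1*, which encodes p120-catenin, by 0.92 (adjusted p = 0.00825). *Ctnnd1* and *Dsc2*, a desmosomal cadherin, were higher in DSS + EA than in DSS, by 0.98 and 1.39 (adjusted p of 0.00813 and 0.0471).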

How the data were processed

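The authors deposited raw counts (reads assigned to each gene, not scaled) for 9 nanopore cDNA libraries of colon; per the labels the genome build is mm10, and the aligner, counting tool and use of strand are not given in the sources used here. Positions are from GENCODE M21 (GRCm38). *Cldn3* overlaps an antisense gene by 40 bases. *Tjp1* overlaps *Gm44792* and *Gm44794* on its own strand by 1628 and 411 bases, and *Gm44795* on the other strand by 319. Reads of overlaps on opposite strands cannot be told apart without strand, and strand does not separate those on the same strand. Of 27733 lines, 14 held no counts and were skipped, and all columns matched a mouse by name. The 10 genes and all lists were chosen with earlier results of these data known. Counts were tested with edgeR 4.0.16 (R 4.3.3; TMM, filterByExpr by group, quasi-likelihood F test, 1 fit of 9 libraries, Benjamini-Hochberg adjustment over all 12566 genes tested). A second fit replaced library sizes by the summed counts of the 6 epithelial genes. Ratios were compared by exact permutation tests (scipy 1.17.1). Alternatives were DESeq2 1.42.0, RLE or no normalization factors, other filters, prior counts and thresholds, fits of 2 groups, a replicate block and each library left out. Scripts were tested on simulated data. The named genes were the 10, the 2 closest to each by r, and the called gene of each comparison list with the largest change in either direction. *Crb3*, *Marveld3*, *Ildr1*, *Mpdz*, *Jam2*, *Jam3*, *Esam*, *Cldn14*, *Ctnnd1* and *Dsc2* were added after their values were seen. The mice of a group are separate animals; their number limits the precision. PCR reads without molecular identifiers are not independent molecules.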

Additional observations from a re-analysis of the deposited data

How the results depend on the processing

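The counts of tight junction genes that passed kept their direction under every alternative run, between 5 and 8 lower in DSS against control and between 3 and 7 higher in DSS + EA against DSS when each library was left out in turn (5 without control mouse 1 or DSS mouse 2, 3 without DSS + EA mouse 1, 7 without DSS mouse 1). By the thresholds of the study the counts were 2 and 1, and with DESeq2 in place of edgeR, an alternative chosen after seeing the data, 2 and 2. At an adjusted p under 0.05 DESeq2 called 6 genes higher in DSS + EA against DSS, adding *Cldn8*. A fit of only the 2 groups compared called 1 gene lower in DSS + EA against control. Of all genes, 457 passed in that comparison, 703 with DESeq2, 1147 with only the 2 groups and between 107 and 772 without 1 library; the cause was not tested. Relative to the epithelial genes, the 2 genes higher in DSS became 1 without *Krt18*, *Krt19* or *Vil1* in the reference, with no filter or with the replicate block, 0 with only the 2 groups, and 0 to 2 without 1 library, *Tjp1* being lost first; those lower ran from 1 to 3. In DSS + EA against DSS, 1 was higher with only the 2 groups, 2 were lower without *Krt8* in the reference, and without 1 library 1 to 3 were higher and 0 to 2 lower; in DSS + EA against control 1 was higher with only the 2 groups.

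Changes near 0 turned sign, none of them past the threshold. Relative to the epithelial genes in DSS + EA against DSS, *Cgn* was 0.0448 without *Krt19*, *Cldn7* was 0.0723 without *Epcam*, 0.13 without *Krt19*, 0.0193 without *Vil1* and 0.0242 with the replicate block, and *Ocln* was −0.0882 without *Krt18* and −0.12 without *Krt8*. *Tjp1* in DSS + EA against DSS was 0.0502 with no filter. Without 1 library, the ranges on the relative scale in DSS + EA against DSS were −0.37 to 0.25 for *Cgn*, −0.28 to 0.29 for *Cldn7* and −0.14 to 0.13 for *Ocln*, and in DSS against control −0.56 to 0.0600, −0.19 to 0.38 and −0.18 to 0.0935. On the CPM scale they were −0.17 to 0.44 for *Cldn4*, −0.39 to 0.0130 for *Cldn7* and −0.32 to 0.0410 for *Tjp1* in DSS + EA against control, and −0.18 to 0.19 for *Tjp1* in DSS + EA against DSS.

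With *Cldn2* alone in the numerator, the claudin ratio differed by −0.21, 0.93 and 0.72 in the 3 comparisons. Without 1 library it ranged from −1.60 to −1.19, from 1.19 to 1.71 and, for DSS + EA against control, from −0.15 (without DSS + EA mouse 2) to 0.28. The replicate block called 7 genes lower in DSS and 7 higher in DSS + EA against DSS, adding *Cldn8* and *Cgn*. Same-numbered mice are different animals, and their deviations correlated between −0.16 and 0.11, so the number was not taken to pair them. Low counts limit *Cldn23*, *Cldn15* and *Cldn8* in DSS mice, with 1, 14 and 18 reads at the lowest, and *Tjp1*, with 19 to 54 reads per mouse.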
